A study of Mus musculus with 9 samples.

Results

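Barhl1, Barhl2, Foxa1, Foxa2, Foxb1, Lmx1a, Lmx1b and Slc17a6 were followed through the developing hypothalamus. The first 7 encode transcription factors linked to the mamillary, premamillary and subthalamic territories. Slc17a6 encodes the vesicular glutamate transporter that marks glutamatergic neurons, and it is not restricted to these territories. The 8 genes were taken by name from the 38195 gene symbols of the deposited expression table. 7 of the 8 were among the 14004 genes with enough signal to be tested, and Foxa2 was not. Barhl1 was chosen by its measured values, because they differed widely between lateral libraries, so that spread and its differences from the lateral zone are described here without a test.

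RNA was taken from the hypothalamus of E12.5 embryos of the outbred CD-1 mouse strain. The 3 groups were the ventricular zone, which lines the ventricle and holds dividing progenitors, the medial mantle zone next to it, and the lateral mantle zone beyond that, with 3 libraries each. The zones were cut out by hand from coronal slices, and no treatment or mutation was involved. Nothing in the labels tells if replicate libraries stem from different embryos or litters, so p-values measure only the spread between these libraries, which may be technical. The values are FPKM, fragments scaled to transcript length and to the mapped fragments of the library, and differences are on the log2(FPKM + 1) scale, which understates changes at low levels.

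The mamillary region lies at the caudal end of the hypothalamus and gives rise to the mamillary bodies, and the subthalamic nucleus arises from neurons born beside it. Foxb1 and Barhl1 mark mamillary neurons, and Barhl1, Lmx1a, Lmx1b and Foxa1 mark the subthalamic lineage on its way from the caudal ventricular zone to its lateral position. Foxa2, Lmx1a and Lmx1b are also known from the floor plate of the midbrain, where they specify dopamine neurons.

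Depth, estimated from the smallest steps between low values, ranged from 4415704 to 8810489 fragments in 7 libraries. Ventricular replicate 3 held 260016, 24.8-fold below the median library, and medial replicate 3 held 537032, 12.02-fold below it. A value of 0 can also be a failed estimate: 27 genes in ventricular replicate 3 and 15 in medial replicate 3 were listed at 0 while the other 8 libraries held at least 10 FPKM. No mean is printed for a zone with a 0. Radial glia and cycling progenitor markers summed to 1011 to 2287 FPKM in the ventricular zone, 973 to 1155 FPKM in the medial zone and 88.6 to 126 FPKM in the lateral zone. Postmitotic neuron markers summed to 594 to 1668, 1593 to 1876 and 2303 to 2609 FPKM in the same order. In bulk tissue, fewer cells of a type and less RNA per cell cannot be told apart.

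The sequences upstream of Barhl1, Lmx1b and Foxa1 are shown because these 3 genes had the highest levels of the factors in lateral replicate 2, the library that stood apart within its zone. Each is the 250 bases before the RefSeq start on GRCm38.p6, read 5′ to 3′ along the gene, on the minus strand. 7 of the 8 genes matched an entry of that table, with 11 windows, and Foxb1 was the gene without one. The windows were searched on both strands for a homeodomain core, TAATTA, which is its own reverse complement, and a forkhead core, TGTTTAC or its reverse complement GTAAACA. Capitals mark a match. The homeodomain core occurred in 4.85% and the forkhead core in 3.16% of 32817 windows of the same length. The windows lie at chr2:28916669-28916918 for Barhl1, chr2:33641099-33641348 for Lmx1b and chr12:57546112-57546361 for Foxa1.
Barhl1: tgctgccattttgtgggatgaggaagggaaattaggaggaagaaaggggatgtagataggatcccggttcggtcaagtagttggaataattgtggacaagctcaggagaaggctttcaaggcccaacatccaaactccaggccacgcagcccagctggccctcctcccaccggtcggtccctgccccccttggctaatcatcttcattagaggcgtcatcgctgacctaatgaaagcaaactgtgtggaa
Lmx1b: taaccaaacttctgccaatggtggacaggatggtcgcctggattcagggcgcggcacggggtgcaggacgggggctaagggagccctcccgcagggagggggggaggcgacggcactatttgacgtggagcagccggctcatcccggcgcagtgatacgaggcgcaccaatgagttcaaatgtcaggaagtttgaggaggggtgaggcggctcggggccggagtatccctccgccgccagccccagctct
Foxa1: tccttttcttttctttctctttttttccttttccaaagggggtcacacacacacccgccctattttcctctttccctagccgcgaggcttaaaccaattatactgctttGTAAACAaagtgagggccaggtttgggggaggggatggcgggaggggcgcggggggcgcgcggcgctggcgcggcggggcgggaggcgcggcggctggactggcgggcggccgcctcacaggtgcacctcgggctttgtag
The Foxa1 window held the forkhead core at 141 bases before the start, and neither core occurred in the windows of Barhl1 and Lmx1b. Of the other windows, those of Barhl2, Lmx1a and Foxa2 held neither, and 1 of the windows of Slc17a6 held the homeodomain core. The Lmx1b window overlaps the first exon of C130021I20Rik, a gene annotated as antisense on the opposite strand, whose values are given with those of Lmx1b. The Foxa1 window lies in an intron of a longer annotated transcript of that gene, apart from its last bases. These matches are letters in a window and show no binding.

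Barhl1, Barhl2, Lmx1a, Lmx1b and Foxa1 were high in the ventricular zone, low and uneven in the medial zone, and uneven in the lateral zone, where replicate 2 stood above the other lateral libraries. Foxb1 varied as well, with its highest level in ventricular replicate 2 alone. Slc17a6 was level throughout, and Foxa2 was at or near 0 in every library but a shallow one.

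**Figure D1:**
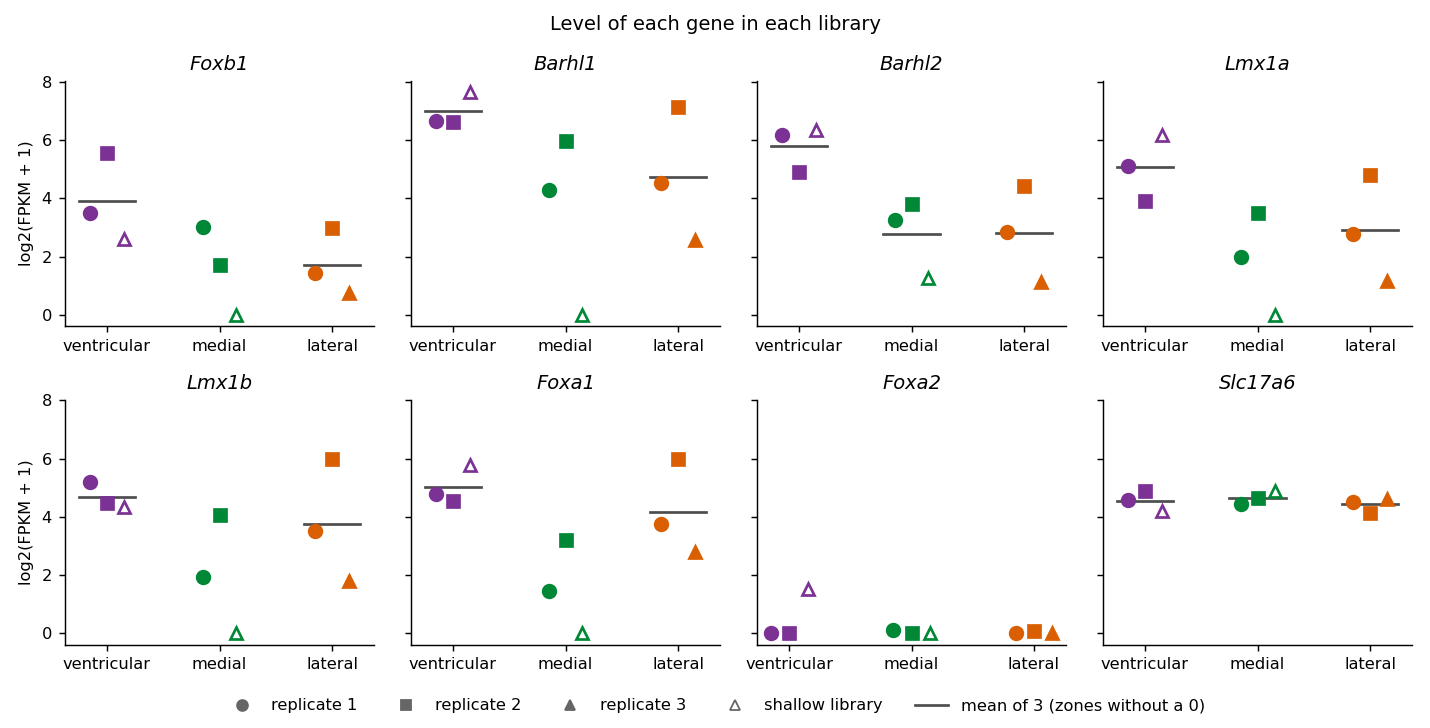
Level of each gene as log2(FPKM + 1) on the vertical axis, in each library of the ventricular, medial and lateral zones; the marker gives the replicate, open markers the shallow libraries and bars the mean of 3 in zones without a 0. Barhl1, Barhl2, Lmx1a, Lmx1b and Foxa1 are above their medial levels in the ventricular zone and in lateral replicate 2, Foxb1 is highest in ventricular replicate 2, Slc17a6 is level and Foxa2 is near 0.

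Foxb1 encodes a forkhead factor that mamillary neurons need to send their axons to the thalamus. It lies at chr9:69757710-69760940 on the minus strand (GENCODE M21 on GRCm38, the build of all gene spans here). Foxb1 had 10.4, 46.5 and 5.09 FPKM in ventricular replicates 1 to 3, 7.13, 2.31 and 0 FPKM in medial replicates 1 to 3, and 1.72, 6.96 and 0.670 FPKM in lateral replicates 1 to 3. Ventricular replicate 2 stood 4.48-fold above replicate 1, and the ventricular libraries overlapped both other zones. Foxb1 was the only one of the 6 varying factors to be lower in medial replicate 2 than in medial replicate 1, at 0.324 times its level. The value in ventricular replicate 3 stands on about 3.95 fragments. The ventricular minus medial difference was 2.31 ± 0.93 (log2, limma, SE), with an adjusted p of 0.398. It includes the 0 in medial replicate 3 and lay between 1.47 and 3.50 across the alternative settings. The ventricular minus lateral difference was 2.17 ± 0.93 (limma, adjusted p = 0.128), and the medial minus lateral difference was -0.14 ± 0.93 (limma, adjusted p = 0.954). None of the 3 passed, although without both shallow libraries the ventricular minus lateral difference was 2.81 (limma, adjusted p = 0.0324). In that fit 3887 of 13717 genes were called between these zones. The ventricular values left in it were 10.4 and 46.5 FPKM, the higher from ventricular replicate 2.

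Ventricular replicate 2 differed from its companions in other ways. Its neuron markers summed to 1668 FPKM, against 751 and 594 FPKM in ventricular replicates 1 and 3. Its progenitor markers summed to 1011 FPKM, against 1816 and 2287 FPKM there. Lhx1, a LIM homeodomain factor of mamillary neurons, had 57.9 FPKM in ventricular replicate 2, against 12.9 and 2.41 FPKM in ventricular replicates 1 and 3. The part of these differences in the Foxb1 values was not tested. An antisense gene, B230323A14Rik, overlaps Foxb1, and the library kit is not stated to keep the strand, so its reads could not be told from those of Foxb1.

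Barhl1 encodes a homeodomain factor of mamillary and subthalamic neurons and lies at chr2:28907679-28916668 on the minus strand. Barhl1 had the highest level of the 8 genes in each ventricular library, at 101, 98.6 and 199 FPKM (133 ± 57.6, SD, n = 3). It had 18.6, 61.4 and 0 FPKM in the medial zone, and 22.2, 139.6 and 4.91 FPKM in the lateral zone (55.6 ± 73.3, SD, n = 3). No medial library reached the lowest ventricular one, whereas lateral replicate 2 lay within the ventricular range. Lateral replicate 2 was 6.30-fold above lateral replicate 1 and 28.4-fold above lateral replicate 3. The 0 in medial replicate 3 allows up to 1.43 FPKM, the level of 3 fragments at that depth over the merged exon length, which covers counting error only.

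The ventricular minus medial difference of Barhl1 was 3.57 ± 1.45 (limma, adjusted p = 0.399) and did not pass. That error draws on all 9 libraries, so it includes the lateral spread by which Barhl1 was chosen. With only the ventricular and medial libraries fitted it was 3.57 ± 1.31 (limma, adjusted p = 0.702). Across the alternative settings this difference lay between 1.53 and 4.84, and the reported value includes the 0 in medial replicate 3. The ventricular minus lateral difference was 2.24 and the medial minus lateral difference -1.33, both as a description. Across the alternative settings these ranged between 1.15 and 3.44 and between -2.60 and 0.46, so the order of the medial and lateral zones was not fixed. Its nearest coding neighbour, Ddx31, an RNA helicase gene 2108 bp away, was level by comparison. Ddx31 had 7.62, 7.89 and 9.22 FPKM in the ventricular zone, 8.89, 6.68 and 3.38 FPKM in the medial zone, and 6.27, 6.16 and 7.02 FPKM in the lateral zone.

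Barhl2, the paralog of Barhl1 with roles in diencephalic patterning, lies at chr5:106452523-106458166 on the minus strand. Barhl2 had 71.1, 29.0 and 79.6 FPKM in the ventricular zone (59.9 ± 27.1, SD, n = 3), 8.60, 13.04 and 1.43 FPKM in the medial zone, and 6.19, 20.5 and 1.21 FPKM in the lateral zone (9.29 ± 10.003, SD, n = 3). All 3 ventricular libraries were above all 6 mantle libraries. Of all tested genes, 25.2% were separated in this direction from the lateral zone and 5.36% from the medial zone. The share separated from both zones was not computed. The value in medial replicate 3 stands on about 1.78 fragments.

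Barhl2 passed the test between the ventricular and lateral zones, with a difference of 3.0 ± 0.86 and an adjusted p of 0.0370 (limma). It was the 1 gene called of the 6 tested there, which include Slc17a6 and leave out Barhl1. Beside it, 19.6% of all 14004 genes were called, 10.7% higher and 8.93% lower in the ventricular zone. That call was lost on leaving out single libraries, with a limma adjusted p of 0.102 without ventricular replicate 1, 0.0873 without ventricular replicate 3 and 0.0521 without medial replicate 1. It was also lost without lateral replicate 1 (0.102) or lateral replicate 3 (0.113), and over all alternatives the adjusted p ranged from 0.00150 to 0.113. The difference kept its direction in each of the 20 alternatives. Of the radial glia and cycling progenitor markers, 11 of 12 were also higher in the ventricular than in the lateral zone, and their part in the Barhl2 result was not tested. The ventricular minus medial difference of Barhl2 was 3.02 ± 0.86 (limma, adjusted p = 0.380), and the medial minus lateral difference was -0.02 ± 0.86 (limma, adjusted p = 0.994).

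Barhl1 exceeded Barhl2 in FPKM, a level per length, in each library except medial replicate 3, by 1.42, 3.40 and 2.505 times in the ventricular zone, 2.16 and 4.71 times in medial replicates 1 and 2, and 3.58, 6.82 and 4.07 times in the lateral zone. The ratio was highest in lateral replicate 2 and lowest in ventricular replicate 1.

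Lmx1a and Lmx1b encode LIM homeodomain factors that act together in the midbrain floor plate and also mark the subthalamic lineage. Lmx1a lies at chr1:167689237-167848741 on the plus strand and Lmx1b at chr2:33560965-33640511 on the minus strand. Lmx1a had 33.9, 14.2 and 70.7 FPKM in the ventricular zone, 2.97, 10.3 and 0 FPKM in the medial zone, and 5.86, 27.1 and 1.25 FPKM in the lateral zone. Lmx1b had 36.1, 21.1 and 19.4 FPKM in the ventricular zone, 2.82, 15.8 and 0 FPKM in the medial zone, and 10.6, 61.8 and 2.45 FPKM in the lateral zone. For both genes the ventricular libraries were above all medial ones and overlapped the lateral ones. Lmx1b was higher in lateral replicate 2 than in any ventricular library, whereas Lmx1a in lateral replicate 2 lay below its 2 highest ventricular values.

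The ventricular minus medial difference was 3.24 ± 1.05 for Lmx1a (limma, adjusted p = 0.393) and 2.67 ± 1.12 for Lmx1b (limma, adjusted p = 0.408). The ventricular minus lateral difference was 2.15 ± 1.05 for Lmx1a (limma, adjusted p = 0.172) and 0.91 ± 1.12 for Lmx1b (limma, adjusted p = 0.584). The medial minus lateral difference was -1.09 ± 1.05 for Lmx1a (limma, adjusted p = 0.602) and -1.76 ± 1.12 for Lmx1b (limma, adjusted p = 0.410). None of these passed. Both ventricular minus medial differences include the 0 in medial replicate 3. Across the alternative settings they lay between 1.78 and 4.46 for Lmx1a and between 1.67 and 3.88 for Lmx1b. The ratio of Lmx1a to Lmx1b in FPKM was 0.940, 0.670 and 3.65 in the ventricular zone, 1.05 and 0.651 in medial replicates 1 and 2, and 0.555, 0.439 and 0.511 in the lateral zone. All 3 lateral ratios lay below the other 5, and the ratio in ventricular replicate 3 stands on about 62.5 fragments of Lmx1a and 24.6 of Lmx1b.

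C130021I20Rik starts 682 bp upstream of the annotated start of Lmx1b, on the opposite strand, and was chosen after its values were seen. It had 61.9, 41.7 and 190 FPKM in the ventricular zone, 6.90, 35.0 and 0 FPKM in the medial zone, and 23.0, 105 and 8.02 FPKM in the lateral zone. Within the medial and lateral zones its libraries stood in the same order as those of Lmx1b. In the ventricular zone they did not, since replicate 3 was the highest for C130021I20Rik and the lowest for Lmx1b. Another annotated feature on the opposite strand, Gm38011, lies inside Lmx1b, and reads from it could not be told apart.

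Foxa1 and Foxa2 encode forkhead factors that open chromatin in endoderm and in the floor plate. Foxa1 lies at chr12:57540628-57546916 and Foxa2 at chr2:148042877-148046969, both on the minus strand. Foxa1 had 26.4, 22.2 and 54.5 FPKM in the ventricular zone, 1.74, 8.18 and 0 FPKM in the medial zone, and 12.47, 62.6 and 5.97 FPKM in the lateral zone. The ventricular libraries were above all medial ones, and lateral replicate 2 was the highest of the 9. Among the factors, Foxa1 had the largest medial minus lateral difference, -2.63 ± 0.91, which did not pass (limma, adjusted p = 0.144). Its ventricular minus medial difference was 3.49 ± 0.91 (limma, adjusted p = 0.345), and its ventricular minus lateral difference was 0.86 ± 0.91 (limma, adjusted p = 0.522). The ventricular minus medial difference includes the 0 in medial replicate 3 and lay between 2.33 and 4.79 across the alternative settings.

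Foxa2 had 0, 0 and 1.88 FPKM in the ventricular zone, 0.0709, 0 and 0 FPKM in the medial zone, and 0, 0.0701 and 0 FPKM in the lateral zone. The 1.88 FPKM in ventricular replicate 3 stands on about 1.16 fragments. Foxa2 was at or below the level of about 1 fragment in each library and was not tested. The 2 forkhead paralogs were measured at very different levels in the same tissue.

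The ratio of Barhl1 to Foxa1 in FPKM separated the zones as a description. It was picked from several ratios computed, and others, such as Barhl1 to Barhl2 and Lmx1a to Lmx1b, did not separate the 3 zones. It also draws on the lateral Barhl1 values by which that gene was chosen. The ratio of Barhl1 to Foxa1 was 3.81, 4.45 and 3.66 in the ventricular zone, 10.7 and 7.51 in medial replicates 1 and 2, and 1.78, 2.23 and 0.824 in the lateral zone. The 3 zones did not overlap, although each gene alone overlapped between the ventricular and lateral zones, and medial replicate 3 gave no ratio because both genes were listed at 0.

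Slc17a6 lies at chr7:51622006-51671119 on the plus strand. It had 23.0, 28.7 and 17.3 FPKM in the ventricular zone (23.0 ± 5.72, SD, n = 3), 20.7, 23.8 and 28.9 FPKM in the medial zone (24.5 ± 4.12, SD, n = 3), and 21.9, 16.7 and 23.5 FPKM in the lateral zone (20.7 ± 3.54, SD, n = 3). The libraries of the 3 zones overlapped, and lateral replicate 2 was the lowest of all 9. The ventricular minus medial difference was -0.10 ± 0.23 (limma, adjusted p = 0.870), the ventricular minus lateral difference 0.13 ± 0.23 (limma, adjusted p = 0.717) and the medial minus lateral difference 0.23 ± 0.23 (limma, adjusted p = 0.619). A feature on the same strand, Gm45072, overlaps Slc17a6.

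**Figure D2:**
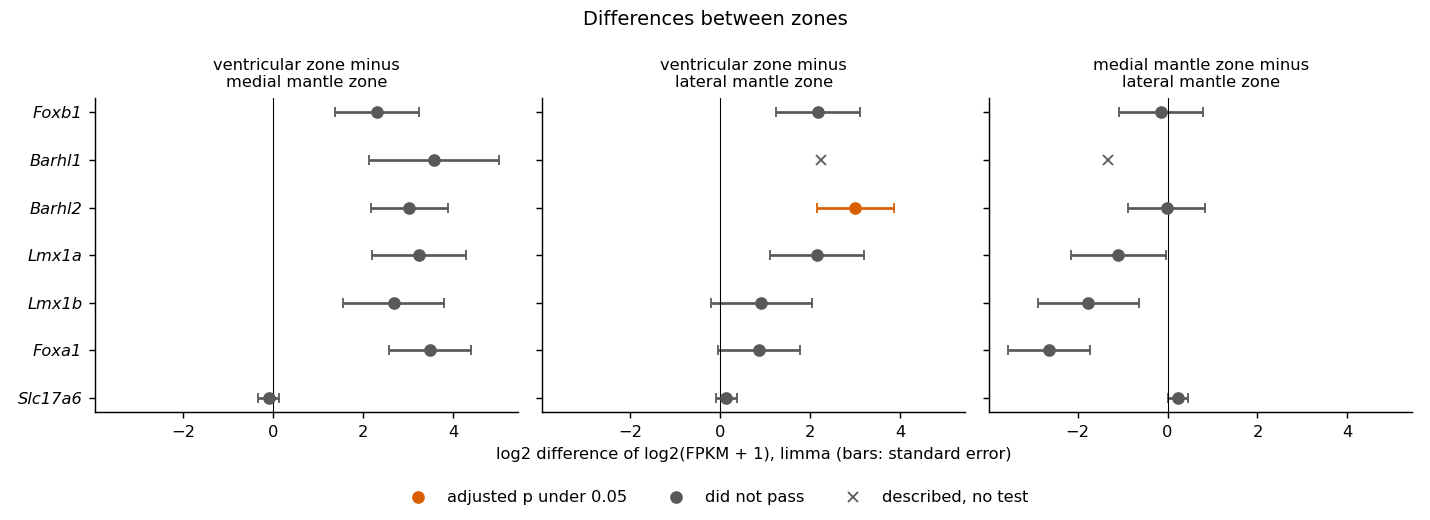
Differences between zones on the log2(FPKM + 1) scale from limma, on the horizontal axis, with bars for the standard error, for each tested gene. Barhl2 between the ventricular and lateral zones is the point that passed, and crosses mark the Barhl1 differences described without a test. The Barhl1 bar in the first panel includes the lateral spread.

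5 of the 7 tested genes (Barhl1, Barhl2, Lmx1a, Lmx1b and Foxa1) had every ventricular library above every medial one, beside 5.36% of all tested genes. No gene of the 14004 passed between these zones with limma (0%), and 1661 genes had an unadjusted p under 0.05, among them 5 of the 6 tested genes other than Barhl1. These genes had similar profiles and were chosen with earlier results of these data known, so nothing is read from either count. The 0 genes called became 566 without ventricular replicate 2, the library with more neuron and fewer progenitor transcripts, and 2761 with array weights, which down-weight noisy libraries. With those weights Barhl2 (2.58, limma adjusted p = 0.0185) and Foxa1 (2.51, limma adjusted p = 0.0317) passed. Between the medial and lateral zones none of the 6 genes tested passed with limma, beside 4.12% of all genes. Of these 6, 1 (Foxa1) had an unadjusted limma p under 0.05, as did 2887 of the 14004 genes. Of the 577 genes called there, 86.8% were higher in the medial zone, and the median of all genes was shifted by 0.101. After quantile scaling 791 genes were called, 66.6% of them higher in the medial zone.

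The spread within the lateral zone was wide for the 6 factors together and not for Slc17a6. The range of log2(FPKM + 1) over the 3 lateral libraries was 4.57 for Barhl1, the value that chose it, 4.18 for Lmx1b, 3.64 for Lmx1a, 3.28 for Barhl2, 3.19 for Foxa1, 2.25 for Foxb1 and 0.47 for Slc17a6. The median range over all tested genes was 0.36. A range of at least 2 was found in 1% of all tested genes.

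Lateral replicate 2 was the highest lateral library for all 6. It was 5.84-fold above replicate 1 and 25.2-fold above replicate 3 for Lmx1b, 5.01-fold and 10.5-fold for Foxa1, 4.63-fold and 21.7-fold for Lmx1a, 4.06-fold and 10.4-fold for Foxb1, and 3.31-fold and 17.0-fold for Barhl2. Lateral replicate 3 was the lowest for all 6, so the library order was the same in each. These 6 were among 96 tested genes, 0.686%, in which lateral replicate 2 stood at least 1 above both other lateral libraries on the log2 scale. The choice of Barhl1 by this spread bears on the count, and nothing is read from that share. Slc17a6 in lateral replicate 2 was 0.765 times replicate 1 and 0.712 times replicate 3.

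The medial libraries were uneven for the same factors. Medial replicate 2 was above medial replicate 1 by 5.61-fold for Lmx1b, 4.71-fold for Foxa1, 3.48-fold for Lmx1a, 3.31-fold for Barhl1 and 1.52-fold for Barhl2. Of all tested genes, 0.957% were higher in medial replicate 2 than in replicate 1 by at least 1 on the log2 scale. Barhl1, Foxa1, Foxb1, Lmx1a and Lmx1b were listed at 0 in medial replicate 3 and above 1 FPKM in both other medial libraries, as were 4.28% of all tested genes. At that depth 3 fragments would give 1.68 FPKM of Foxa1, 1.87 of Foxb1, 1.64 of Lmx1a and 1.14 of Lmx1b, each under the level of that gene in medial replicate 1. For Foxa1 the margin is slight, since medial replicate 1 held 1.74 FPKM. Medial replicate 3 held 28.9 FPKM of Slc17a6, about 83.8 fragments, so that gene was well measured in the same library.

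**Figure D3:**
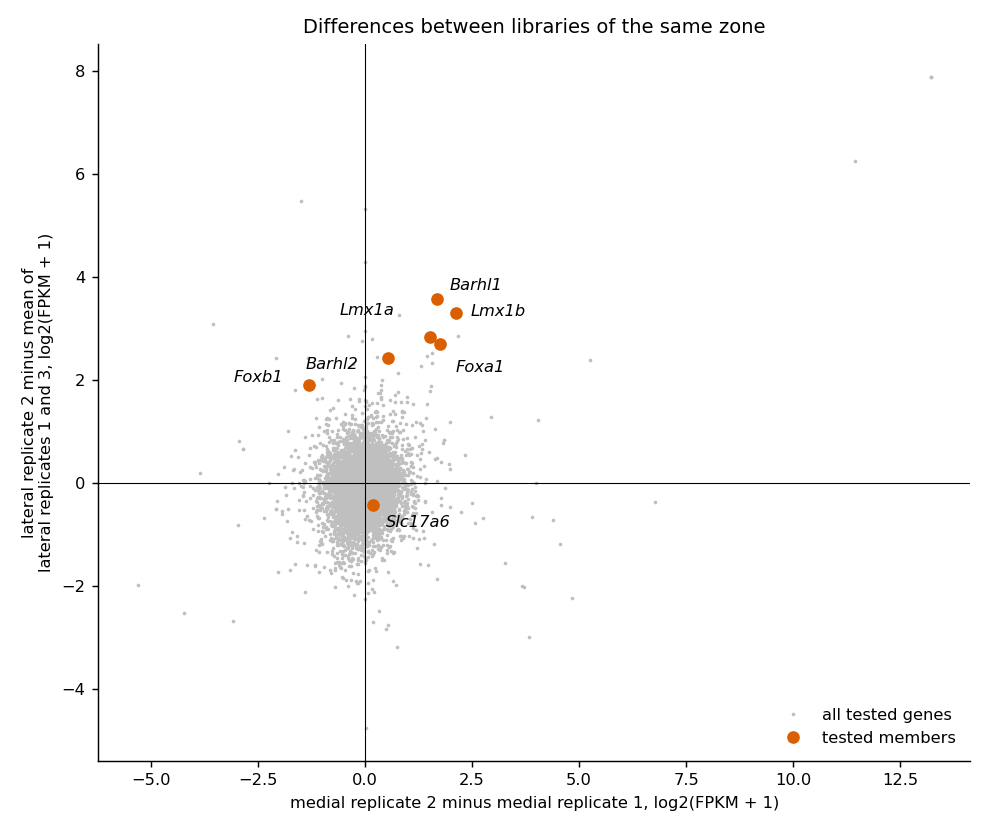
Each point is a tested gene, with medial replicate 2 minus medial replicate 1 on the horizontal axis and lateral replicate 2 minus the mean of the other lateral libraries on the vertical axis, both on the log2(FPKM + 1) scale. Barhl1, Lmx1a, Lmx1b and Foxa1 lie to the upper right, Barhl2 above the centre, Foxb1 to the upper left and Slc17a6 within the cloud.

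Other genes stood apart in lateral replicate 2 as well. The hypothalamic field markers summed to 198 FPKM there, against 499 and 640 FPKM in lateral replicates 1 and 3, and most of each sum was Otp. The thalamic and telencephalic neighbour markers summed to 20.1 FPKM, against 56.1 and 85.0 FPKM. Markers of cells other than neurons were lower there too. Endothelial markers summed to 14.1 FPKM, against 39.3 and 42.9 FPKM, and red cell markers to 224 FPKM, against 541 and 415 FPKM. Meninges and mesenchyme markers summed to 2.46 FPKM, against 6.13 and 8.60 FPKM, and microglia and macrophage markers to 42.4 FPKM, against 53.7 and 49.8 FPKM. Postmitotic neuron markers lay between the other lateral libraries. Otp, a homeodomain factor of neuroendocrine neurons, had 116 FPKM in lateral replicate 2, against 393 and 467 FPKM. Of the other hypothalamic field markers, Fezf1, Six3, Six6, Sim1, Nr5a1 and Hmx2 were also lowest there. Hmx3 and Gsx1 lay between the other lateral libraries, and Rax was at 0. Nkx2-1 and Nkx2-2 were highest there, with 35.9 FPKM of Nkx2-1 against 11.7 and 30.3 FPKM, and 5.95 FPKM of Nkx2-2 against 2.93 and 2.90 FPKM. The floor plate and ventral midbrain genes summed to 30.3 FPKM in lateral replicate 2, against 33.5 and 49.6 FPKM. Of these 15 genes, 5 were highest among the lateral libraries in replicate 2, all at low levels, 3 were lowest there and 2 were at 0 in all 3. Otx2 had 0.465 FPKM there, against 0 and 0 FPKM, and Slc6a3, the dopamine transporter, had 0.446 FPKM, against 0.0839 and 0 FPKM. Of the 3 that were lowest there, Th had 7.26 FPKM, against 11.3 and 12.6 FPKM. Neurog2 had 2.92 FPKM there, against 6.84 and 12.03 FPKM, and Shh had 1.53 FPKM, against 1.91 and 1.66 FPKM. The part of these shifts in the spread of the 6 factors was not tested.

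Among 9596 candidate genes, the nearest profiles over the 9 libraries were sought for each varying factor, by the root mean square difference of log2(FPKM + 1) after each gene was centred. Several of the nearest genes were other members. Among the genes reported here, Barhl1 was nearest to Lmx1a (0.773) and Lmx1b (0.923). Barhl2 was nearest to Rspo2 (0.419), Lmx1a (0.591) and Irx3 (0.634), and Lmx1a to Rspo2 (0.427), Barhl2 (0.591) and Foxa1 (0.752). Lmx1b was nearest to Foxa1 (0.688), Lmx1a (0.805) and Ntng2 (0.852), and Foxa1 to Lmx1b (0.688), Lmx1a (0.752) and Ttc6 (0.968). Foxb1 stood apart from the others, with Fam181b (0.780), Pou3f3 (0.898) and Cck (0.935) as its nearest genes. Slc17a6 varied too little, with an SD of 0.264, to be searched. The libraries shared by each pair include both shallow ones, and these values are a description.

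Rspo2, a secreted activator of Wnt signalling, had 31.5, 9.36 and 61.3 FPKM in the ventricular zone, 2.35, 7.37 and 0 FPKM in the medial zone, and 2.14, 10.3 and 0.730 FPKM in the lateral zone. Ttc6 lies 17197 bp from Foxa1 on the opposite strand of chromosome 12. Ttc6 had 6.39, 2.41 and 19.0 FPKM in the ventricular zone, 0.207, 0.564 and 0 FPKM in the medial zone, and 0.868, 5.25 and 0.477 FPKM in the lateral zone. Ttc6 was highest in the shallow ventricular replicate 3, whereas Foxa1 was highest in lateral replicate 2. Ntng2, which encodes a netrin-G membrane protein, had 107 FPKM in lateral replicate 2, against 15.5 and 6.60 FPKM in lateral replicates 1 and 3.

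**Figure D4:**
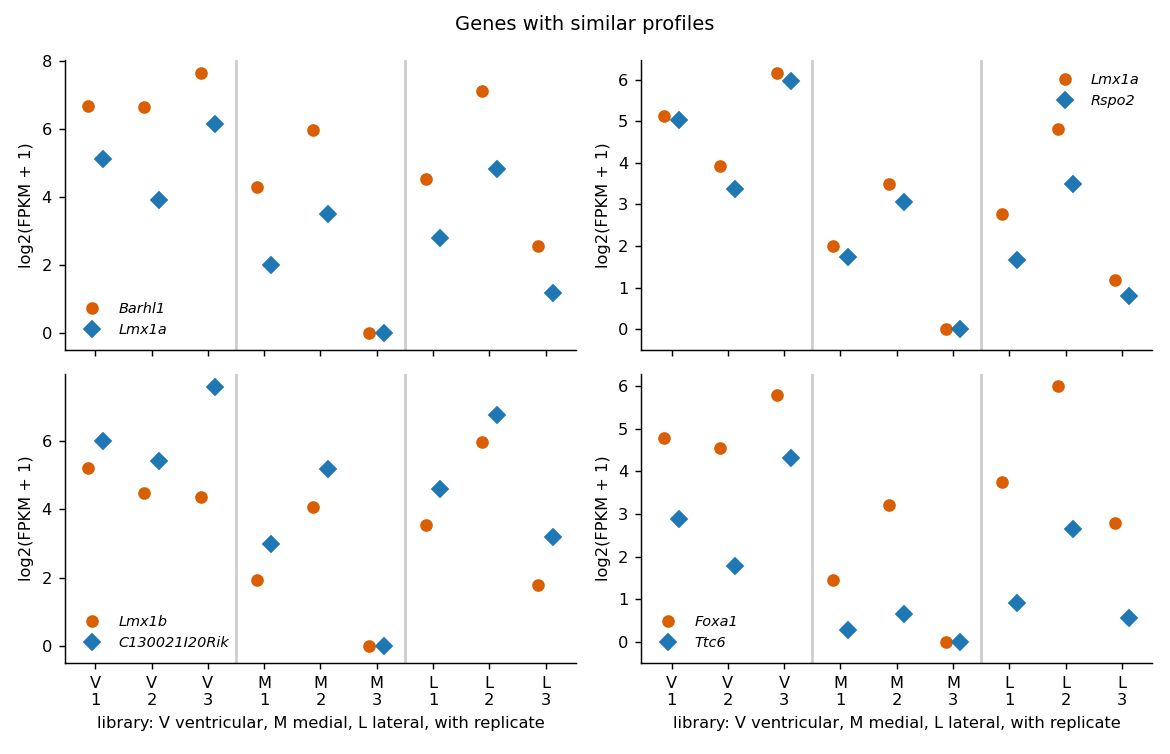
log2(FPKM + 1) in each library for 4 factors (circles), each with a gene of similar profile (Lmx1a for Barhl1, Rspo2 for Lmx1a, Ttc6 for Foxa1) or, for Lmx1b, the antisense neighbour (diamonds). Both genes of each panel are at 0 in medial replicate 3 and are highest among the lateral libraries in replicate 2.

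The other factors of these territories did not share 1 pattern. Of 18 mamillary and subthalamic field factors other than the 8 genes, 6 were higher and 1 was lower in the ventricular zone than in the lateral zone, with a median difference of 1.55, against 0.05 over all tested genes. In the ventricular zone Dbx1, a homeodomain progenitor factor, was higher by 6.82 ± 0.31 (limma, adjusted p = 2.02e-05), Wnt8b, a Wnt ligand, by 5.58 ± 0.61 (limma, adjusted p = 0.000798), Nr4a2, a nuclear receptor of dopamine neurons, by 3.15 ± 0.80 (limma, adjusted p = 0.0252) and Irx3 by 2.67 ± 0.77 (limma, adjusted p = 0.0385). Nkx2-1, the hypothalamic homeodomain factor, did not pass (2.07, limma adjusted p = 0.0515). In the lateral libraries Dbx1 reached at most 0.109 FPKM and Wnt8b at most 0.0653 FPKM, so these 2 sizes depend on the added 1. None of the 18 passed between the ventricular and medial zones (limma, median 1.27 against -0.05 over all genes), and 2 were higher in the medial than in the lateral zone (median 0.22 against 0.10). 7 of the 18 were listed at 0 in medial replicate 3, as were 1146 of all tested genes (8.18%). Foxp2, a forkhead factor, also stood out in lateral replicate 2, with 54.3 FPKM against 18.5 and 12.8 FPKM in lateral replicates 1 and 3, and the ventricular and medial values lay between 10.7 and 17.4 FPKM. Irx5 was likewise highest there, with 10.4 FPKM against 2.29 and 0.188 FPKM. Sim1 and Otp of the same 18 went the other way. Sim1 had 7.36 FPKM in lateral replicate 2 against 25.7 and 23.4 FPKM, and Otp had 116 FPKM against 393 and 467 FPKM.

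**Figure D5:**
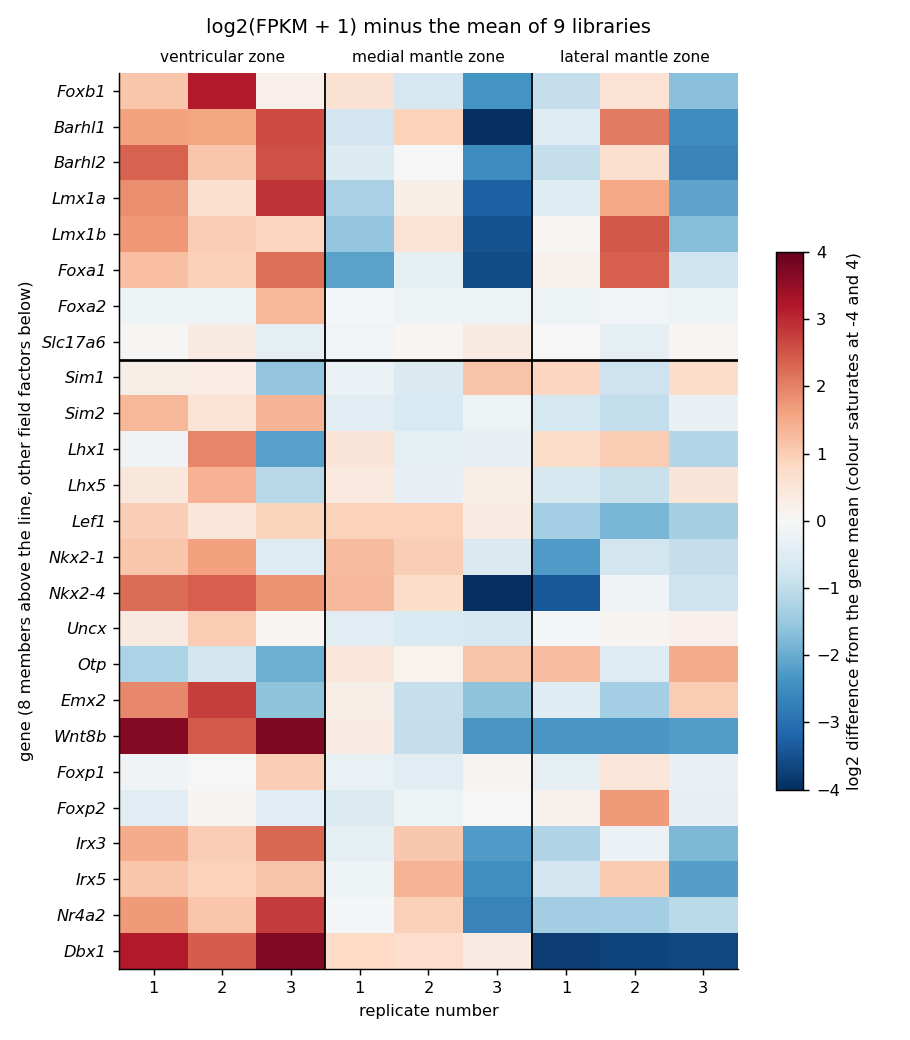
log2(FPKM + 1) minus each gene's mean of 9 libraries, shown by colour, for the 8 genes above the line and other field factors below it, with the libraries of each zone in columns; colours saturate at -4 and 4. Barhl1, Barhl2, Lmx1a, Lmx1b and Foxa1 are red in the ventricular zone and in lateral replicate 2, whereas Dbx1 and Wnt8b are red in the ventricular zone and blue in all lateral libraries.

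The floor plate and ventral midbrain genes were examined because Foxa1, Lmx1a and Lmx1b belong to that programme as well. Of 15, 8 were tested, and 6 were higher and 1 was lower in the ventricular zone than in the lateral zone (median 3.23). In the ventricular zone Otx2 was higher by 4.58, Ntn1 by 3.66, Shh by 3.61 and Neurog2 by 3.51, and Ddc, which makes dopamine, was at -1.79 without passing (limma, adjusted p = 0.0654). None passed between the ventricular and medial zones, and 1 was higher in the medial than in the lateral zone. Of 10 tested glutamatergic genes beside Slc17a6, 4 were higher and 1 was lower in the ventricular zone than in the lateral zone (median 1.01). In the ventricular zone Neurod2 was higher by 2.77, Neurod6 by 2.42 and Neurod1 by 2.13, and Tbr1 was lower by 2.86, on the log2 scale. None passed between the ventricular and medial zones, and 1 was higher in the medial than in the lateral zone. Of 15 GABAergic genes, 3 were higher and 4 were lower in the ventricular zone than in the lateral one (median -0.26), none passed between the ventricular and medial zones and 5 were higher in the medial than in the lateral zone.

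Of the marker lists, between the ventricular and lateral zones, 11 of 12 radial glia and cycling progenitor markers were higher (median 4.20) and 10 of 12 neuron markers lower (median -1.55) in the ventricular zone. 2 hypothalamic field markers of 12 were higher and 1 lower, 5 of 6 tested red cell markers were higher, and 2 of 8 microglia and macrophage markers were lower. None passed of 8 thalamic and telencephalic neighbour, 8 endothelial and 4 meningeal markers. Between the medial and lateral zones 11 progenitor, 5 red cell, 2 hypothalamic and 1 neighbour marker were higher and no neuron, endothelial, microglial or meningeal marker passed. None of these lists had a member called between the ventricular and medial zones.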

How the data were processed

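RNA was measured in 9 libraries, 3 per zone. Zones were microdissected from vibratome slices, and mRNA libraries were made from total RNA with a NEBNext Ultra kit and read as 100 bp pairs, per the labels' protocols. The authors deposited FPKM values per gene and library. Bowtie2 2.1.0 and mm10 are named in the submitters' processing notes, and how FPKM was estimated is not given in the sources used. The table had 38370 rows. 42 exact duplicates were dropped, and of rows sharing a symbol the one with the highest mean was kept, dropping 133 more. Of the 38195 symbols left, 34293 are in the reference table.

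Values were analysed as log2(FPKM + 1), with genes of at least 1 FPKM in at least 3 libraries. All 9 libraries entered a single fit with limma 3.58.1 (R 4.3.3), with a mean for each zone and the intensity trend on. Two-sided p-values were adjusted after Benjamini and Hochberg over all 14004 tested genes within each comparison, with a threshold of 0.05. The fit was tested on simulated data.

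The 8 genes and the gene lists were chosen with earlier results of these data known, and no list was tested as a set. The rule named all 8 genes, up to 4 genes per list that passed between the ventricular and lateral zones by size and up to 2 that did not by level, and, for each gene with an SD of at least 1, the 3 nearest profiles among genes with a zone mean of at least 5 FPKM, leaving out predicted genes. Not all genes the rule allows are printed, and some are not reported here. 1 list symbol, Ahsp, was not analysed here.

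Depth came from the size of 1 fragment in the low values of genes of at least 1500 bp: 69.8% to 74.4% of these lay less than 0.1 from a whole step. It gives relative depth, and the fragments given for a gene are approximate. Alternatives covered the pseudocount, the filter, the scaling, the trend, array weights, the zones fitted, a replicate block and leaving out libraries.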

Additional observations from a re-analysis of the deposited data

How the results depend on the processing

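Between the ventricular and lateral zones, the 1 gene of the 8 that passed became 0 with a pseudocount of 0.1, without the filter on low values and with only the zones compared, 2 without both shallow libraries (Barhl2 and Foxb1) and 3 with array weights (Barhl2, Foxb1 and Lmx1a). Between the ventricular and medial zones it was 0, and 2 with array weights. Over all genes, calls between the ventricular and medial zones numbered 0 as reported, 9 with quantile scaling and 2761 with array weights. Between the ventricular and lateral zones they were 6800 with array weights, 3887 without both shallow libraries and 1684 with only the zones compared, and 2750 as reported. Between the medial and lateral zones they were 3700 with array weights, 2027 with only the zones compared and 1651 without both shallow libraries, and 577 as reported. Leaving out 1 library at a time gave 0 to 566, 940 to 3960 and 202 to 1767 genes in these 3 comparisons, and 0, 0 to 1 and 0 of the 8 genes. The first was 566 without ventricular replicate 2. The second was 1194 without ventricular replicate 1, and 940, 1008 and 1199 without lateral replicates 1, 2 and 3. The third was 891 and 1767 without ventricular replicates 2 and 3, 294, 223 and 290 without medial replicates 1, 2 and 3, and 237, 202 and 291 without lateral replicates 1, 2 and 3. Some differences turned sign. The medial minus lateral difference of Barhl2 (-0.02) was 0.015 with a pseudocount of 0.1, 0.82 with array weights, 0.73 without both shallow libraries, and -0.85 to 0.79 on leaving out 1 library (0.73 without medial replicate 3, 0.0014 without lateral replicate 1, 0.79 without lateral replicate 2). That of Foxb1 (-0.14) was 0.66 with array weights, 0.65 without both shallow libraries, and -0.86 to 0.65 on leaving out 1 library (0.65 without medial replicate 3, 0.49 without lateral replicate 2). The ventricular minus medial difference of Slc17a6 (-0.10) was 0.050 with array weights, 0.20 without both shallow libraries, and -0.27 to 0.079 on leaving out 1 library (0.018 without medial replicate 3). Its ventricular minus lateral difference (0.13) was -0.040 without ventricular replicate 2, -0.010 without lateral replicate 2 and at most 0.31. That of Lmx1b (0.91) was -0.076 without lateral replicate 3 and 2.02 without lateral replicate 2. The cause was not tested.

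Replicate numbers are shared between zones, and the labels do not tell if they pair libraries. Deviations of same-numbered libraries correlated between -0.0984 and 0.249, and those of differently numbered ones between -0.247 and 0.231. Not every same-numbered pair exceeded 0.1, and the reported fit did not pair libraries. Ventricular replicate 1 correlated best with medial replicate 2 (0.128). Of the medial and lateral pairs, the highest were replicate 2 with replicate 2 (0.224) and replicate 3 with replicate 3 (0.113). Barhl1, Barhl2, Lmx1a, Lmx1b and Foxa1 were highest in replicate 2 and lowest in replicate 3 of both mantle zones. A shared origin of same-numbered libraries was not tested. With a replicate block, 0, 2901 and 703 genes were called in the 3 comparisons, with 0, 2 (Barhl2 and Foxb1) and 0 of the 8 genes.

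Depth limits the 2 shallow libraries most: a fragment of Foxb1 is worth 1.29 FPKM in ventricular replicate 3 and 0.624 FPKM in medial replicate 3.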

Other observations

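Genes outside the lists also stood apart in lateral replicate 2 and were chosen after their values were seen. Calb2, which encodes the calcium-binding protein calretinin, had 167 FPKM in lateral replicate 2, against 45.3 and 46.5 FPKM in lateral replicates 1 and 3. The immediate early genes Fos, Fosb, Junb and Npas4, which neurons and other cells switch on within minutes of a stimulus, were higher there as well. Fos had 108 FPKM in lateral replicate 2, against 30.0 and 36.5 FPKM, and Npas4 had 13.03 FPKM, against 3.46 and 4.31 FPKM. Of the 96 genes that stood at least 1 above both other lateral libraries on the log2 scale, 40 are predicted genes or pseudogenes. In 144 genes lateral replicate 2 was below both by at least 1. Tbr1, a factor of glutamatergic cortical and hypothalamic neurons, had 2.17 FPKM there, against 23.8 and 16.0 FPKM, and Fezf1, a factor of the ventromedial hypothalamus, had 7.73 FPKM, against 35.2 and 64.2 FPKM. The part of these genes in the spread of Barhl1 was not tested.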
